A study of Arabidopsis thaliana with 4 samples.

Results

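The genes described are the phototropins PHOT1 and PHOT2, their partner NPH3, and the PHYTOCHROME KINASE SUBSTRATE genes PKS1, PKS2, PKS3 and PKS4. Their rule is a list of locus identifiers that names no measured value, although earlier results of these data were known when the list was drawn up, and all 7 were found among the 33558 loci of the deposited table. RNA came from shoots of Arabidopsis thaliana seedlings aged 7 d, of the accession Col-0 or of a line labelled hfr1-4pil1-2, called hfr1 pil1 here, which carries mutations in the genes of the shade-response basic helix-loop-helix proteins HFR1 and PIL1. Both genotypes grew on agar plates that held no sucrose, at 22 °C, under constant white light with an intensity of 30 to 50 µE and a red to far-red ratio (R:FR) of 1.2. They either stayed in white light for the full 7 d or were moved after 3 d to low R:FR for 96 h. The low R:FR light came from LEDs and gave 13 µE of red, 1.23 µE of blue and 20 µE of far-red light. The amount of light and its blue part changed together with R:FR, so a response to low R:FR below is a response to this light as a whole.

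Phototropins are blue-light receptor kinases at the plasma membrane, with light-sensing LOV domains and a kinase domain, and they direct growth toward light, move chloroplasts, open stomata and flatten leaves. NPH3 is a BTB-domain protein that binds phototropins, serves as an adapter of a CULLIN3 ubiquitin ligase and is required for phototropism of the hypocotyl. PKS proteins bind both phototropins and phytochromes, the receptors of red and far-red light, and act in phototropism, leaf positioning and leaf flattening.

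The deposited values were normalized counts, that is reads per gene divided by a size factor for each library. The labels list 1 sample per group. The Col-0 columns were means, and whole reads of 2 libraries could be recovered behind each, so that 6 libraries entered the tests (2 for Col-0 in each light and 1 for hfr1 pil1 in each light), numbered by size factor and holding 7358583 to 14684713 recovered reads. Nothing in the labels says that these came from separate cultures, so the p-values measure only the spread between these libraries, which may be technical, and the lone hfr1 pil1 libraries had to borrow the spread found between the Col-0 libraries. A gene was called at a Benjamini-Hochberg adjusted p under 0.05 from edgeR's quasi-likelihood test over 20014 genes. The summed level of 4 photosynthesis genes used as shoot markers was 230142 and 232456 normalized counts in white light and 115670 and 107618 in low R:FR (Col-0 first in each pair). The lower sum in Col-0 came mostly from RBCS1A (136384 to 63407) and CA1 (53353 to 17159). PSBO1 (29132 to 25332) and LHCB2.1 (11273 to 9772) were lower by less. All 5 root markers were detected in this shoot tissue, with a summed level of 1228 and 888 in white light and 1458 and 1454 in low R:FR, and none was at 0. The transcripts of HFR1 (27.9 and 189 normalized counts in white light, then 2203 and 2112 in low R:FR) and PIL1 (16.5 and 220.3, then 277 and 1574) were still detected in hfr1 pil1, at a higher level than in Col-0 except for HFR1 in low R:FR, where the log2 fold change was −0.06 and not called. These values say nothing of whether either protein was lost, and the line is named here by its label.

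In the RefSeq annotation of the TAIR10.1 assembly, PHOT1 (AT3G45780) lies at chr3:16816721-16824210 on the plus strand and has 21 exons. PHOT2 (AT5G58140) lies at chr5:23523825-23533111, plus strand, with 23 exons, and NPH3 (AT5G64330) at chr5:25727126-25730358, plus strand, with 6 exons. The PKS genes each have 1 exon. PKS1 (AT2G02950) is at chr2:854077-856725 on the minus strand, PKS2 (AT1G14280) at chr1:4877506-4879307 on the plus strand, PKS3 (AT1G18810, listed there without a symbol) at chr1:6485515-6487153 on the minus strand and PKS4 (AT5G04190) at chr5:1150886-1152627 on the plus strand. PHOT2 shares 2760 bases with AT5G58150 on the opposite strand, NPH3 shares 24 bases with SAC51 and PKS1 shares 189 bases with a long non-coding RNA gene, AT2G04465. Whether reads were counted by strand is not given in the sources used here, so the reads of these stretches are uncertain. AT5G58150 itself had 72.2 to 100.4 normalized counts against 2576 or more for PHOT2 in every library. SAC51 had 759 to 932 normalized counts, above NPH3 (453 to 784) in every deposited column. AT2G04465 has no value in the deposited table.

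The promoters of 3 members that rose in both genotypes are printed as the 250 bases before the first annotated start of transcription, read 5′ to 3′ on the gene's strand (RefSeq, TAIR10.1). No other annotated gene lies in these windows. PHOT1 is shown for a phototropin and PKS1 and PKS4 for the PKS genes with a smaller and a larger response. Capitals mark the only match to CACGTG, to CATGTG or its reverse complement CACATG, or to TGTCTC or its reverse complement GAGACA. The sequence CACGTG is the G-box and CATGTG a related E-box, both bound by basic helix-loop-helix factors such as the PIFs, and TGTCTC is an auxin response element.
PHOT1, chr3:16816471-16816720, plus strand: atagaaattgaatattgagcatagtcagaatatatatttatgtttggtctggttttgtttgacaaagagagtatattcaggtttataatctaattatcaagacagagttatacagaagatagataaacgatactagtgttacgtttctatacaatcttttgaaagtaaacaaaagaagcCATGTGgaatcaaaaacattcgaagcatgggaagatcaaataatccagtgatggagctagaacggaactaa
PKS1, chr2:856726-856975, minus strand: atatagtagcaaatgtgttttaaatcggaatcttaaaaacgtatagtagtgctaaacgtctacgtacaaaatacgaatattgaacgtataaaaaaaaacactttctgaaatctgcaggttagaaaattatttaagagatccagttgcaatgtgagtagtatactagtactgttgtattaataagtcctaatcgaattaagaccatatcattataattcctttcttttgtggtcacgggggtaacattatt
PKS4, chr5:1150636-1150885, plus strand: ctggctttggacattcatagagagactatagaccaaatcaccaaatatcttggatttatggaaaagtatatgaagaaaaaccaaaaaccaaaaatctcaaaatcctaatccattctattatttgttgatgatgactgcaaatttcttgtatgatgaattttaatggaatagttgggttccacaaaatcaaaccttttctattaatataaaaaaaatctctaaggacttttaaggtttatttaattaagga
In windows from 250 bases before to 50 bases after the first annotated start, CACGTG was found in 0 of 7 members and in 7.68% of the 27443 promoter windows of the annotation. CATGTG or CACATG was found in 1 of 7, PHOT1, whose match begins 71 bases before the start, and in 12.9% of all windows. Some members have later annotated starts, which this count leaves out. PHOT2 had a CATGTG match 180 bases before its start number 4, and PHOT1 had a further one at base 13 from its start number 2. TGTCTC or GAGACA was found in 0 of 7 and in 14.2% of all windows. In the 1000 bases before the start, a length chosen after the first result was seen, CATGTG or CACATG occurred in 5 of 7 members (37.7% of all windows), TGTCTC or GAGACA in 3 of 7 (39.6%) and CACGTG in 0 of 7 (14.8%). The matches describe letters in these windows and are not shown to be bound.

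PHOT1, the main photoreceptor for phototropism in weak blue light, rose 2.44-fold in Col-0 after 96 h of low R:FR, while PHOT2, which acts mainly in strong blue light and in the movement of chloroplasts away from it, changed far less and was not called. PHOT1 had 1584 and 1597 normalized counts in Col-0 under white light and 3802 and 3972 under low R:FR. The libraries of the same light lay close together and the groups did not overlap. The fitted log2 fold change was 1.29 ± 0.063 (SE, edgeR adjusted p = 4.8e-09), and 3.91% of the tested genes had a higher one. PHOT2 had 2878 and 2576 normalized counts in white light and 3040 and 3043 in low R:FR. Both low R:FR libraries were above both white light libraries, but the white light libraries differed by 0.16 on the log2 scale, about the size of the log2 fold change of 0.16 ± 0.068 (SE, edgeR adjusted p = 0.0761). The 95% interval of that change ran from 0.01 to 0.30, and PHOT2 was called under 3 of 8 alternatives, with an adjusted p of 0.0359 and a log2 fold change of 0.24 without library 1 of Col-0 white light.

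NPH3 rose 1.55-fold in Col-0. It had 446 and 459 normalized counts in white light and 699 and 705 in low R:FR. All low R:FR values were above all white light values, and libraries of the same light were within 0.04 of each other on the log2 scale. Its log2 fold change was 0.63 ± 0.071 (SE, edgeR adjusted p = 8.63e-06), and 11.7% of the tested genes had a higher one. This was the smallest change among the called members.

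All 4 PKS genes rose in Col-0, from 1.86-fold for PKS3 to 7.09-fold for PKS4. PKS1, the first member found, as a protein that binds phytochromes and is phosphorylated by them, had 170.0 and 141 normalized counts in white light and 407 and 369 in low R:FR. The lower of the low R:FR values was still well above the higher white light value. Its log2 fold change was 1.30 ± 0.11 (SE, edgeR adjusted p = 4.7e-07), nearly that of PHOT1.

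PKS2, which acts in leaf flattening and leaf positioning with the phototropins, had 191 and 183 normalized counts in white light and 781 and 749.7 in low R:FR. Per kb of coding sequence it was the most abundant PKS transcript in every low R:FR library, and its groups lay far apart. The log2 fold change was 2.03 ± 0.084 (SE, 4.07-fold, edgeR adjusted p = 1.04e-09), and 1.41% of the tested genes had a higher one.

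PKS3 had the smallest rise of the PKS genes. It had 76.2 and 103 normalized counts in white light and 149.8 and 178 in low R:FR. The white light libraries differed by 0.43 on the log2 scale, and the groups did not overlap. The log2 fold change was 0.89 ± 0.15 (SE, edgeR adjusted p = 0.000345).

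PKS4, which acts in hypocotyl phototropism and in growth direction under red and far-red light, had the lowest level per kb in white light and the largest fold change of the 7 genes. It had 20.7 and 14.4 normalized counts in white light, from 26 and 12 reads, and 122 and 137 in low R:FR, from 199 and 175 reads. Every low R:FR value was several times every white light value. The log2 fold change was 2.83 ± 0.20 (SE, edgeR adjusted p = 1.53e-07), and 0.505% of the tested genes had a higher one. With so few reads in white light this fold is less precise than that of PKS2.

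**Figure D1:**
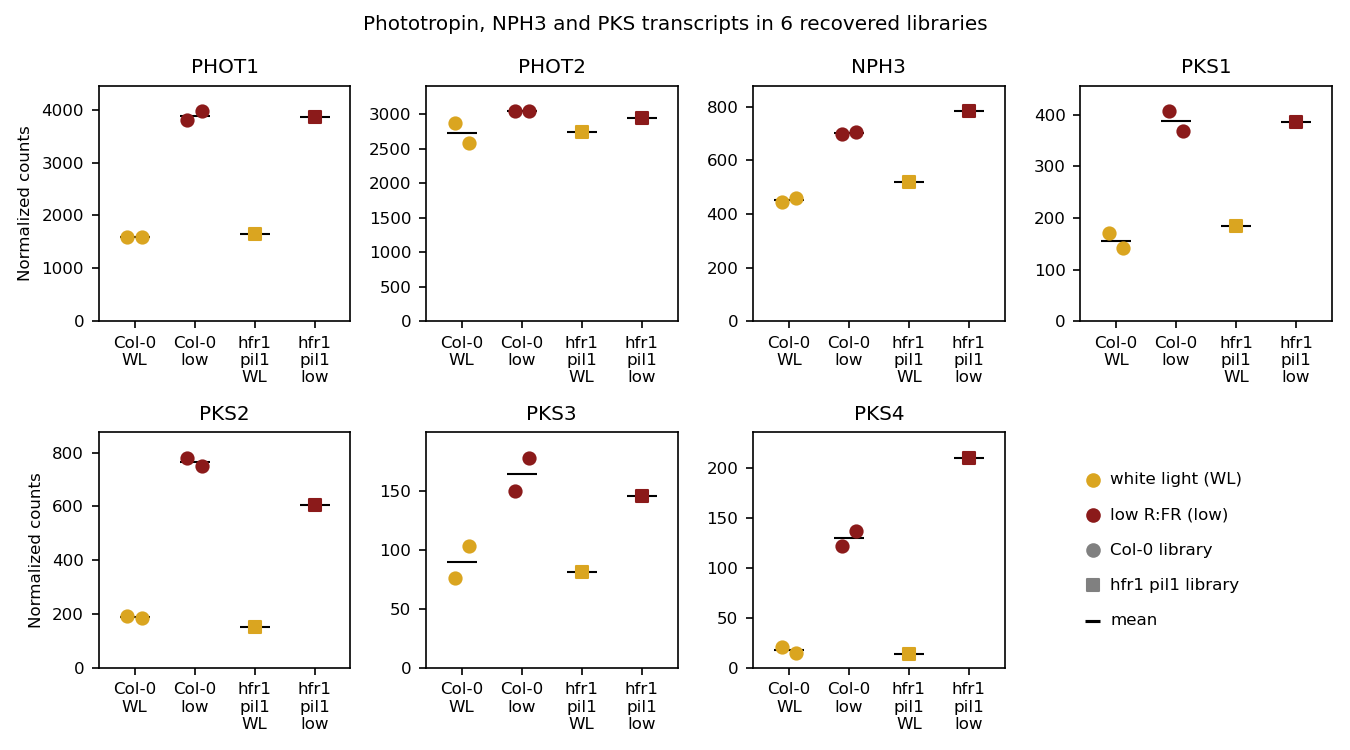
Normalized counts (vertical axis, from 0, a scale of its own for each gene) of the 7 genes in the 6 recovered libraries by genotype and light, where WL is white light, low is low R:FR, circles are Col-0 libraries, squares are hfr1 pil1 libraries and lines are group means. In both genotypes the low R:FR libraries lie above the white light libraries for every gene, by a wide margin for PHOT1, PKS2 and PKS4 and by a narrow one for PHOT2, which ran from 2576 to 2878 in white light and from 2943 to 3043 in low R:FR.

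Of the 7 genes, 6 were called higher and 0 lower in Col-0, where 48.3% of all tested genes were called, 23.0% higher and 25.3% lower. The median log2 fold change of the 7 genes was 1.29, and that of all tested genes was −0.02. For all 7, both low R:FR libraries were above both white light libraries, which held for 35.6% of the tested genes. All 7 also passed the filter on low values. Dividing columns by their totals in place of the authors' factors moved the median gene by 0.12 on the log2 scale and raised each change by about as much. In bulk tissue, fewer cells of a type and less RNA per cell cannot be told apart. In Col-0, 3 of the 5 root markers had higher values in low R:FR (CASP1 from 241 to 518 normalized counts, EXPA7 from 144 to 164, RSL4 from 39.6 to 51.2) and 2 had lower ones (COBL9 from 103 to 93.2, PHT1;1 from 699 to 632). In the lone hfr1 pil1 libraries all 5 had higher values in low R:FR. CASP1 went from 163 to 529 there, EXPA7 from 70.1 to 177 and RSL4 from 22.3 to 60.8. COBL9 went from 60.1 to 105 and PHT1;1 from 572 to 582. The summed shoot markers were lower in low R:FR, and the part of either marker list in the values of the 7 genes was not tested. The 3 guard cell markers summed to 353 in Col-0 white light and 356 in Col-0 low R:FR.

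The hfr1 pil1 line showed a similar set of calls. There, 6 of the 7 genes were called higher and 0 lower, where 36.9% of all tested genes were called, 18.4% higher. The median log2 fold change was 1.07, against −0.00 for all tested genes. PHOT1 had 1657 normalized counts in the white light library and 3868 in the low R:FR library, a log2 fold change of 1.22 ± 0.090 (SE, edgeR adjusted p = 4.6e-07). PHOT2 had 2741 and 2943, a log2 fold change of 0.10 ± 0.097 (SE, edgeR adjusted p = 0.445) that was not called. The phototropins thus took the same order in both genotypes, with a called rise for PHOT1 alone.

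NPH3 had 519 normalized counts in hfr1 pil1 white light and 784 in low R:FR, a 1.51-fold rise (log2 0.59 ± 0.10 SE, edgeR adjusted p = 0.000507). PKS1 had 185 and 387, a 2.09-fold rise (log2 1.07 ± 0.15 SE, edgeR adjusted p = 0.000125). PKS2 had 152 and 604, a 3.96-fold rise (log2 1.99 ± 0.13 SE, edgeR adjusted p = 1.55e-07). These folds were near those of Col-0, and their differences are tested below.

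PKS3 had 80.9 and 145 normalized counts in hfr1 pil1, a log2 fold change of 0.84 ± 0.24 (SE, edgeR adjusted p = 0.0151) that DESeq2 on the same reads did not call (adjusted p = 0.160). PKS4 had 13.9 normalized counts in white light, from 18 reads, and 210.1 in low R:FR, from 152 reads. As a ratio this was the widest gap between lights among the 7 genes. The fitted log2 fold change of PKS4 was 3.91 ± 0.28 (SE, 15.0-fold, edgeR adjusted p = 4.35e-07). Counting error alone left the log2 ratio of its pair of libraries, 3.92, between 3.21 and 4.71 (exact binomial 95% interval).

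**Figure D2:**
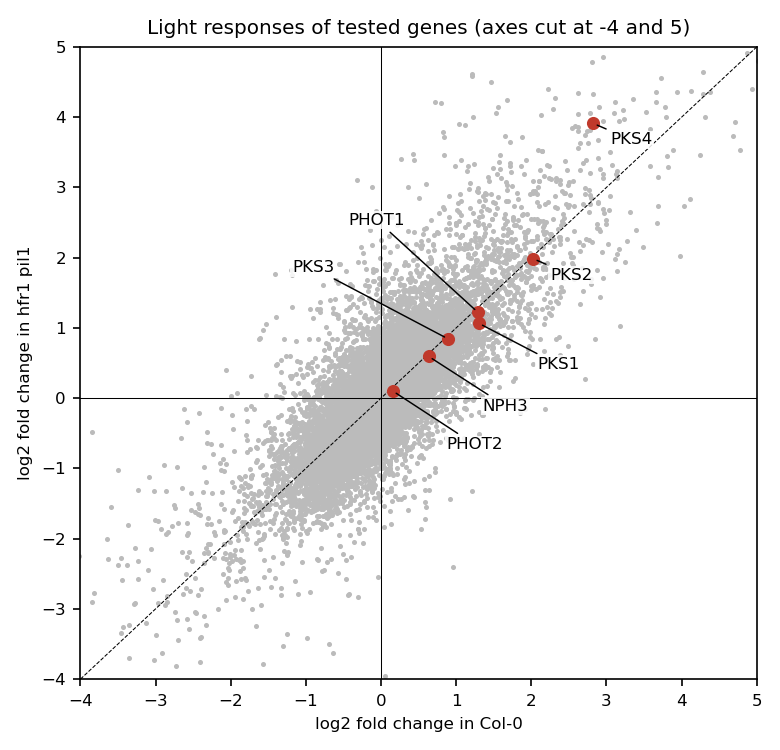
Fitted log2 fold change of low R:FR against white light in hfr1 pil1 (vertical axis) and in Col-0 (horizontal axis) for the tested genes (grey) and the 7 genes (red), with the line of equal responses dashed; 80 genes lie outside the axes, which run from -4 to 5. Of the 7, PKS4 lies farthest from the line (2.83 in Col-0, 3.91 in hfr1 pil1), and the rest lie near it, with PHOT2 near 0 on both axes.

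The genotype comparisons share libraries with the light responses above. In white light 0 of 7 genes were called (2.46% of all tested genes were, 0.570% higher and 1.89% lower), 2 had an unadjusted edgeR p under 0.05 and DESeq2 called 0. These 2 were NPH3, with a log2 fold change in hfr1 pil1 of 0.20 ± 0.089 (SE), and PKS2, with −0.30 ± 0.12 (SE). The hfr1 pil1 library was above both Col-0 libraries for NPH3 (519 against 446 and 459) and below both for PKS2 (152 against 191 and 183). For PHOT1 the 95% interval of the log2 difference ran from −0.11 to 0.23, and for PHOT2 from −0.18 to 0.19. For PKS4, with few reads in white light, it ran from −1.23 to 0.46.

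In low R:FR, 1 of 7 genes was called between genotypes, against 2.39% of all tested genes, 0.989% higher and 1.40% lower. This was PKS4, with 210.1 normalized counts in hfr1 pil1 against 122 and 137 in Col-0. The hfr1 pil1 library lay above both Col-0 libraries, and the log2 fold change was 0.70 ± 0.17 (SE, 1.63-fold, edgeR adjusted p = 0.0465). The call rested on both Col-0 libraries, since the adjusted p was 0.181 without low R:FR library 1 and 0.0877 without library 2. DESeq2 gave no adjusted p for PKS4, and none for PKS3. PKS2 was again below both Col-0 libraries (604 against 781 and 749.7), with a log2 fold change of −0.34 ± 0.094 (SE) and an edgeR adjusted p of 0.0858, which was 0.0356 when genes of low level were not filtered out.

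The remaining members gave intervals around 0 between genotypes in low R:FR. PHOT1, PHOT2 and PKS1 had log2 fold changes of −0.01, −0.05 and −0.01, with 95% intervals from −0.17 to 0.16, from −0.23 to 0.14 and from −0.27 to 0.26. NPH3 had 0.16 (interval −0.03 to 0.35) and PKS3 −0.17 (interval −0.58 to 0.25). The hfr1 pil1 library of NPH3 was above both Col-0 libraries in this light as well (784 against 699 and 705).

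The difference of the light responses, hfr1 pil1 minus Col-0, was called by edgeR for 0 of 7 genes, against 3.81% of all tested genes. Of all tested genes, 1.99% were called with a larger and 1.82% with a smaller response in hfr1 pil1. DESeq2 called 0 of the 7 and gave PKS1, PKS3 and PKS4 no adjusted p. An unadjusted edgeR p under 0.05 was found for 1, PKS4, with a difference of log2 fold changes of 1.09 ± 0.42 (SE, edgeR adjusted p = 0.204). Its adjusted p ran from 0.114 to 0.557 over the alternatives. For PHOT1 the difference was −0.07 (95% interval −0.30 to 0.17), for NPH3 −0.04 (−0.31 to 0.23) and for PKS2 −0.04 (−0.38 to 0.30). For PKS1 it was −0.24 (−0.64 to 0.17) and for PKS3 −0.05 (−0.68 to 0.57). These intervals leave room for differences of the size of the NPH3 response in PKS1 and PKS3.

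**Figure D3:**
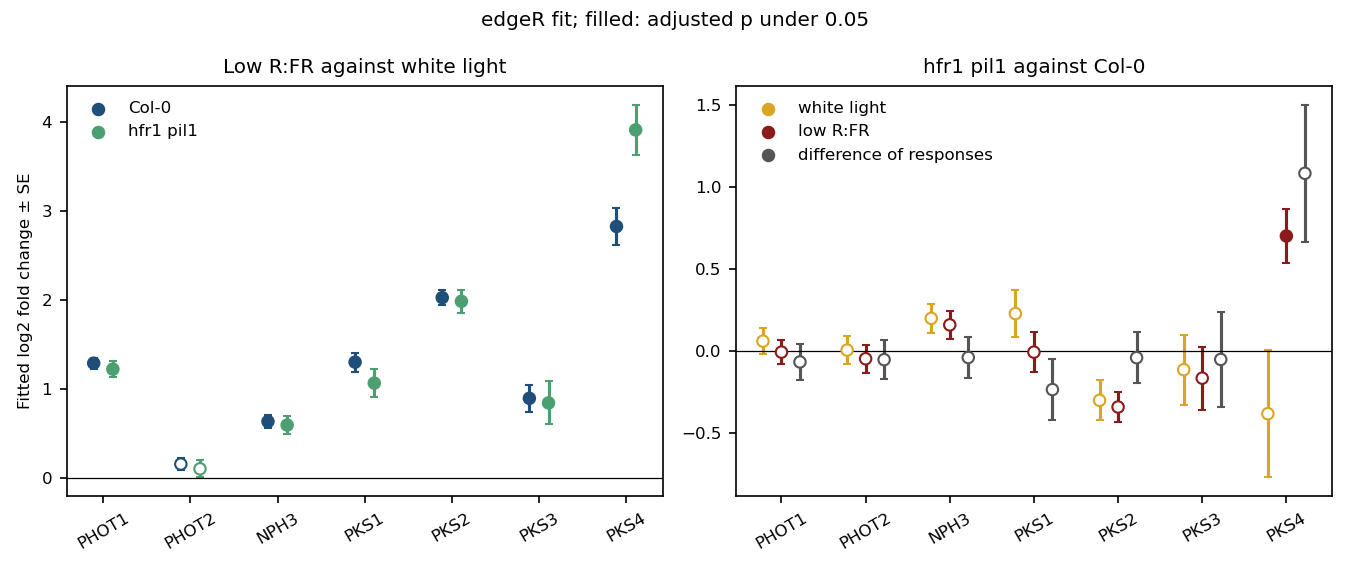
Fitted log2 fold change with its SE (bars) for the 7 genes. Left, low R:FR against white light in Col-0 and hfr1 pil1; right, the genotype comparison (hfr1 pil1 against Col-0) for white light and low R:FR, and the difference of the light responses; filled points have an edgeR adjusted p under 0.05. All members except PHOT2 are filled in both light responses, and PKS4 in low R:FR (0.70) is the only filled point on the right.

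Levels were compared between genes per kb of coding sequence. In white light PHOT2 was the most abundant member in all 3 libraries, followed by PHOT1 and then NPH3, and PKS4 was the least abundant. In low R:FR PHOT1 was first in all 3 libraries and PHOT2 second, PKS2 had passed NPH3, and PKS1 followed. The ratio of PHOT1 to PHOT2 per kb was 0.506 and 0.569 in Col-0 white light and 0.556 in the hfr1 pil1 library. In low R:FR it was 1.15 and 1.20 in Col-0 and 1.21 in hfr1 pil1. Low R:FR values were all above 1 and white light values all below it, also per kb of median transcript length (0.540 to 0.609 against 1.23 to 1.29). The annotated transcripts run from 2827 to 6518 bases for PHOT2 and from 3449 to 3451 for PHOT1. PHOT2 stood first in white light by both lengths used, and its order by the longest annotated transcript was not computed. The higher ratio in low R:FR does not depend on the length, which is the same in both lights. In Col-0 low R:FR, PHOT1 and PHOT2 differed by more than their spread (1271 and 1328 against 1106 and 1107 normalized counts per coding kb). NPH3 and PKS1 lay close per coding kb (312 and 315 against 308 and 279.5). Per kb of median transcript length they lay apart (294 and 297 against 154 and 139).

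The 4 PKS genes together had 355 and 345 normalized counts per coding kb in Col-0 white light and 1125 and 1109 in low R:FR. In hfr1 pil1 the sum was 336 in the white light library and 1044 in the other. The make-up of the sum moved as well. The share of PKS2 was 40.5% and 39.9% in Col-0 white light and 52.2% and 50.9% in low R:FR, and that of PKS4 was 4.76% and 3.41% in white light and 8.90% and 10.1% in low R:FR.

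The shares of PKS1 (36.3% and 31.0%, then 27.4% and 25.2%) and PKS3 (18.4% and 25.6%, then 11.4% and 13.8%) were lower in low R:FR, although the levels of both were higher. In hfr1 pil1 the share of PKS4 went from 3.38% in white light to 16.5% under low R:FR, and PKS4 then stood above PKS3, an order not seen in the Col-0 libraries. PKS1 had a larger share than PKS2 in hfr1 pil1 white light (41.7% against 34.2%), an order that turned around per kb of transcript (33.0% against 40.0%). The shares cannot vary independently, since they add up to the whole.

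**Figure D4:**
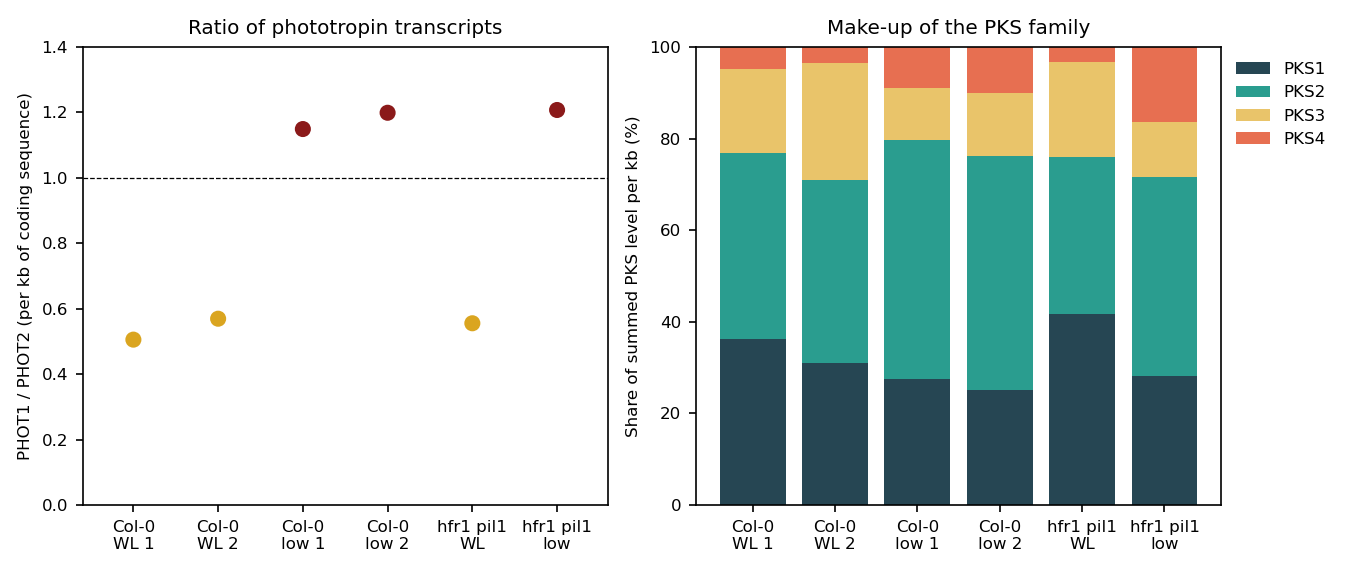
Left, ratio of the normalized counts of PHOT1 to those of PHOT2 per kb of coding sequence in the 6 libraries, with a dashed line at 1; right, share in percent of each PKS gene in the summed PKS level per coding kb (WL, white light; low, low R:FR). The ratio lies at 0.506 to 0.569 in white light and 1.15 to 1.21 in low R:FR, and the PKS4 share is largest in the hfr1 pil1 low R:FR library at 16.5%.

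The genes whose profile over the 4 deposited columns was most like each member were found by Euclidean distance between log2 profiles, each centred on its own mean. Only genes with a symbol and at least 54.2 normalized counts on average were compared. For PHOT1 they were CPD, a brassinosteroid synthesis enzyme (distance 0.061), and XTH8, a xyloglucan-modifying enzyme of the cell wall (0.064), and 75 genes lay within 0.25. For PKS2 they were BR6OX1, another brassinosteroid synthesis enzyme (0.10), and the arabinogalactan protein FLA9 (0.11), and 8 genes lay within 0.25. For PKS4 they were the auxin-responsive growth genes SAUR20 (0.093) and SAUR23 (0.23), and no other gene compared lay within 0.25. SAUR20 had 19.9 and 136 normalized counts in Col-0 and 15.4 and 209 in hfr1 pil1, white light first.

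NPH3 was nearest to SGR5, a zinc finger protein of shoot gravitropism (0.065), and RSH3 (0.072). PKS1 was nearest to the glutathione transferase GSTF4 (0.047) and the nitrilase NIT2 (0.079), and PKS3 to the receptor kinase FERONIA, FER (0.031), and DTA2 (0.033). Many other genes were close as well, with 278 within 0.25 of NPH3, 61 of PKS1 and 302 of PKS3. PHOT2 hardly varied, so that 2316 of 7528 genes lay within 0.25 of it, with PUX3 (0.011) and SEU (0.016) first. With 4 columns, 2 of them means of 2 libraries, the distances rest on few values and no test was made of them.

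Other genes of the pathway were read from lists of known function. Of 11 partners and outputs of the phototropins, 8 were called higher and 0 lower in Col-0 (all tested genes: 23.0% and 25.3%; list median log2 fold change 0.47), and 6 higher and 0 lower in hfr1 pil1 (all tested genes: 18.4% and 18.5%; list median 0.58). DESeq2 called 6 of the 11 in Col-0. RPT2, a close relative of NPH3 that also binds phototropins, had 1777 and 1840 normalized counts in Col-0 white light and 3864 and 4197 in low R:FR. It rose by a log2 fold change of 1.16 ± 0.067 (SE, edgeR adjusted p = 2.16e-08) in Col-0 and 1.13 ± 0.096 (SE) in hfr1 pil1. CBC1, a kinase of blue-light stomatal opening, rose by 1.14 ± 0.097 (SE) in Col-0. The ubiquitin ligase scaffolds CUL3A and CUL3B, through which NPH3 acts, were not called, with log2 fold changes of 0.04 and 0.10.

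PHYA, the phytochrome of far-red light and a binding partner of PKS1, had 914 and 867 normalized counts in Col-0 white light and 1814 and 1827 in low R:FR, and 873 and 2463 in hfr1 pil1. Its hfr1 pil1 library in low R:FR was above both Col-0 libraries. PHYA rose by 1.03 ± 0.065 (SE) in Col-0 and by 1.50 ± 0.093 (SE) in hfr1 pil1, and the difference of 0.47 ± 0.11 (SE) had an edgeR adjusted p of 0.0385, which was lost in 4 of 7 alternatives.

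Of 13 auxin carriers, kinases and transcriptional regulators of phototropism, 9 were called higher and 0 lower in Col-0 (all tested genes: 23.0% and 25.3%; list median log2 fold change 0.50), and 9 higher and 1 lower in hfr1 pil1 (all tested genes: 18.4% and 18.5%; list median 0.54). IAA19, an Aux/IAA protein whose gain-of-function form blocks hypocotyl phototropism, had 50.8 and 61.1 normalized counts in Col-0 white light and 264 and 316 in low R:FR. It rose by 2.39 ± 0.14 (SE, edgeR adjusted p = 3.13e-08) in Col-0 and 3.10 ± 0.22 (SE) in hfr1 pil1. WAG2, a kinase related to the phototropins that acts on PIN auxin carriers, rose by 1.50 ± 0.23 (SE) and 2.24 ± 0.31 (SE). PIN3, an auxin efflux carrier of the hypocotyl, rose by 1.03 ± 0.070 (SE) and 1.19 ± 0.10 (SE). In hfr1 pil1 the lower call was D6PKL3, a kinase acting on PIN carriers, with −0.68 (edgeR adjusted p = 0.0137), a gene named because it was the only lower call of its list.

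Of 8 genes of chloroplast movement, the process that phototropins direct in leaf cells, 0 were called higher and 4 lower in Col-0 (all tested genes: 23.0% and 25.3%; list median log2 fold change −0.13), and 1 higher and 3 lower in hfr1 pil1 (all tested genes: 18.4% and 18.5%; list median −0.24). DESeq2 called 2 of the 8 in Col-0 and 1 in hfr1 pil1. THRUMIN1, a protein that bundles actin filaments at the plasma membrane, had 1015 and 938 normalized counts in Col-0 white light and 653 and 692 in low R:FR. It fell by 0.54 ± 0.071 (SE, edgeR adjusted p = 3.32e-05) on the log2 scale in Col-0 and by 0.88 ± 0.11 (SE) in hfr1 pil1. PMI2 fell by 0.42 ± 0.097 (SE) in Col-0, a call that DESeq2 did not make (adjusted p = 0.157), and the kinesin-like KAC1 fell by 0.39 ± 0.066 (SE). CHUP1, which holds chloroplasts to the plasma membrane, had a mean of 2737 normalized counts in Col-0 white light and of 2736 after low R:FR. JAC1, needed for the accumulation response, was the higher call in hfr1 pil1, at 0.49 ± 0.15 (SE), and DESeq2 did not call it (adjusted p = 0.222).

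Of 4 other proteins with LOV domains, 2 were called higher in Col-0, where 23.0% of all tested genes were, and 1 in hfr1 pil1, where 18.4% were. Such small counts do not set the list apart from all genes. PLPB, a PAS/LOV protein, had 154 and 175 normalized counts in Col-0 white light and 389 and 457 in low R:FR, and rose by 1.37 ± 0.11 (SE, edgeR adjusted p = 4e-07) there and by 1.15 ± 0.15 (SE) in hfr1 pil1. FKF1, a blue-light receptor of flowering time, rose by 0.46 ± 0.12 (SE) in Col-0 and was called higher in hfr1 pil1 in white light, by 0.72 ± 0.14 (SE, edgeR adjusted p = 0.0149), with 218 normalized counts against 125 and 143. DESeq2 made neither FKF1 call.

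Of 30 other NPH3 and RPT2-like genes, 25 passed the filter on low values. Among these 25, 13 were called higher and 4 lower in Col-0 (all tested genes: 23.0% and 25.3%; list median log2 fold change 0.27), and 7 higher and 2 lower in hfr1 pil1 (all tested genes: 18.4% and 18.5%; list median 0.18). DESeq2 called 10 of the 25 in Col-0, in either direction. AT3G19850 had 46.1 and 47.9 normalized counts in Col-0 white light and 219.8 and 236 in low R:FR, and rose by 2.28 ± 0.13 (SE, edgeR adjusted p = 2.67e-08). In hfr1 pil1 it had 63.9 and 156 and rose by 1.29 ± 0.20 (SE). The difference of −0.99 ± 0.25 (SE) had an edgeR adjusted p of 0.0476, which was lost in 4 of the 6 alternatives that gave an adjusted p. AT3G08660 rose by 2.42 ± 0.28 (SE) in Col-0 and 2.62 ± 0.46 (SE) in hfr1 pil1. AT1G52770 went the other way, from 46.1 and 46.7 normalized counts in Col-0 white light to 3.07 and 4.70 in low R:FR, and from 77.8 to 2.76 in hfr1 pil1. The response of NPH3 itself (0.63 in Col-0) thus lay above the median of these relatives and below that of RPT2.

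**Figure D5:**
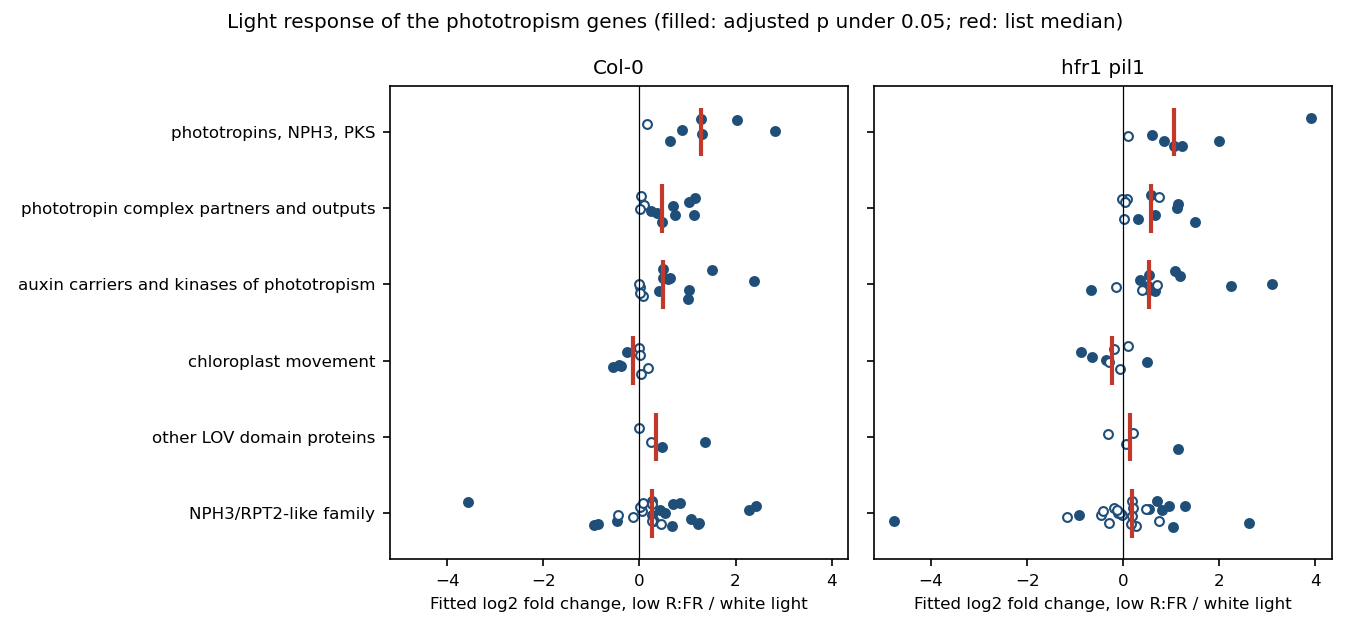
Fitted log2 fold change of low R:FR against white light (horizontal axis) in Col-0 (left) and hfr1 pil1 (right) for the 7 genes and 5 lists of related genes; each point is a gene, filled with an edgeR adjusted p under 0.05, and red lines are list medians. The 7 genes have the highest median in both panels (1.29 and 1.07), and chloroplast movement has the lowest (−0.13 and −0.24).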

How the data were processed

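RNA sequencing of 4 labelled samples was used. Per the file headers and values, the deposited table holds a signal per gene, which is normalized counts (reads divided by a size factor per library), with the Col-0 columns given as means by the authors. The submitters' processing notes name Bowtie and TAIR10, with no version. The sources used here do not give the counting tool or its strand setting.

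Whole reads were recovered from these values within a tolerance of 0.01 reads: in hfr1 pil1 for 100% of values, and in Col-0 as a sum over 2 libraries for 99.8% of values. The 72 and 83 Col-0 genes that could not be split, all above 10196 normalized counts, hold 20.4% and 18.0% of the white light and low R:FR columns. They have no test, and none is among the 7 genes. In white light the size factors were 1.26 and 0.834 for Col-0 and 1.30 for hfr1 pil1, and in low R:FR they were 1.63 and 1.28 for Col-0 and 0.723 for hfr1 pil1.

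The filter kept 20111 genes whose mean over the columns reached 10.8 normalized counts, the equivalent of 1 CPM at the mean column total, and 20014 of them had recovered reads in 6 libraries. The latter were fitted together with edgeR 4.0.16 in R 4.3.3, using the recovered size factors and 1 coefficient per group (2 residual and 10.7 prior degrees of freedom, biological coefficient of variation 0.0525). SE is the log2 fold change divided by the root of the quasi-likelihood F. Intervals of read counts cover counting error only. The fit was tested on simulated data in which some genes changed alike in low R:FR of both genotypes, with the same spread for every gene. No genotype effect was simulated, so the recovery of genotype differences was not tested.

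Alternatives were TMM scaling, no filter, DESeq2 1.42.0, leaving out each Col-0 library, and, for deposited ratios, other pseudocounts and totals. The 7 genes, the lists and the tests were chosen with earlier results of these data known. Named beside the 7 were, per list and comparison, up to 3 called genes with the largest deposited log2 ratio, and the 2 nearest profiles per gene among those with a symbol and at least 54.2 normalized counts on average. CUL3A, CUL3B, CHUP1 and D6PKL3 were named outside that rule, after their values were seen.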

Additional observations from a re-analysis of the deposited data

Results flagged for a closer look

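The light response of PHYA differed between genotypes by a test of the difference itself (interaction term in edgeR). It was larger in hfr1 pil1 by 0.467 on the log2 scale (adjusted p = 0.0385), with 2463 normalized counts in the low R:FR library of hfr1 pil1 against 1814 and 1827 in Col-0. The adjusted p ran up to 0.221 over 7 alternatives, and 4 of them lost the call: DESeq2 and leaving out Col-0 white light library 1 or either Col-0 low R:FR library.

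The light response of AT3G19850, an NPH3-like gene, also differed by that test. It was smaller in hfr1 pil1, with a difference of −0.989 (adjusted p = 0.0476), and 156 normalized counts in low R:FR against 219.8 and 236 in Col-0. The adjusted p ran up to 0.101 over 6 alternatives, and leaving out any 1 of the 4 Col-0 libraries lost the call. DESeq2 gave this gene no adjusted p. Both differences rest on 1 hfr1 pil1 library per light.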

How the results depend on the processing

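The light calls of PHOT1, NPH3, PKS1, PKS2 and PKS4 in both genotypes, and of PKS3 in Col-0, were made under every alternative run. PKS3 in hfr1 pil1 was not called by DESeq2. The calls of PHOT2 in Col-0 came with TMM (adjusted p = 0.0348), without a filter (0.0470) and without Col-0 white light library 1 (0.0359). Between genotypes in low R:FR, 2 of the 7 genes were called without a filter (PKS2 and PKS4). DESeq2 called 0 there and gave PKS3 and PKS4 no adjusted p. No value changed sign among called results. Of 31 calls named from the lists, 8 were lost in some alternative.

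Over all genes, edgeR called 9659 (Col-0 response), 7385 (hfr1 pil1 response), 493 (genotype in white light), 478 (genotype in low R:FR) and 763 (difference of responses). DESeq2 called 5061, 3567, 123, 162 and 228 in this order. Without a filter the last 3 were 1242, 1146 and 1573. Leaving out 1 Col-0 library gave 7742 to 8951, 7246 to 7795, 433 to 843, 343 to 787 and 523 to 1179, and 6 to 7, 6 to 6, 0 to 0, 0 to 1 and 0 to 0 of the 7 genes. The highest of the last 3 counts came without Col-0 white light library 1 (843 and 1179) or library 2 (787). Deposited ratios of at least 2-fold were found for 1524, 2222, 164, 120 and 473 genes. With a pseudocount equal to 5 CPM they were 830, 1188, 53, 41 and 150, and with one equal to 0.1 CPM the last 3 were 377, 311 and 956. Scaling to equal totals changed the split of higher against lower from 963 and 561 to 1211 and 430 in Col-0, and from 1304 and 918 to 1658 and 657 in hfr1 pil1. The cause of these shifts was not tested.

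No paired analysis was possible because the labels give 1 sample per group and the recovered libraries carry no replicate number. Precision is limited by 1 hfr1 pil1 library per light and, for PKS4, by 12 to 26 reads in white light, where the SE can be narrower than counting error.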
